A study of Mus musculus with 6 samples.

Results

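Genes of 6 MAP kinase phosphatases (Dusp1, Dusp2, Dusp4, Dusp5, Dusp6 and Dusp10), 2 Sprouty proteins (Spry1 and Spry2) and 2 Spred proteins (Spred1 and Spred2) were examined in lymphocytes of the mouse small intestine. The genes were chosen by symbol, with earlier results of these data known. Each of the 10 matched 1 of the 55487 genes in the deposited table. RNA was sequenced from live CD3ε+ CD45+ cells sorted from the epithelial area of wild-type C57BL/6J mice, with no treatment named in the labels, and ages were not given in the sources used here. The cells were split by B220, an isoform of the leukocyte phosphatase CD45 that is widely used to mark B cells, into B220− cells (labelled T cells) and B220+ cells (labelled X cells), with 3 libraries per group. The labels do not say whether the 3 libraries of each group were separate mice, and the p-values measure only the spread between libraries, which may be technical.

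MAP kinases (ERK, JNK and p38) carry signals from the T cell receptor and from cytokine and growth factor receptors to the nucleus, and are switched on by phosphorylation of a threonine and a tyrosine. The dual-specificity phosphatases encoded by Dusp genes remove both phosphates. Sprouty and Spred proteins act further upstream, where they restrain the step from Ras to Raf and ERK. Many of these genes are themselves induced by MAP kinase activity, which makes them parts of negative feedback loops, and in T cells they tune the strength and length of the response to antigen.

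The libraries held 11320363 to 39591312 counts. Genes of the CD3 complex and the T cell receptor summed to 5218 to 5345 CPM (counts scaled to a common library size, with a correction for composition) in the B220− and 5435 to 6051 CPM in the B220+ libraries. Of these 8 genes, 1 was called higher and 1 lower in B220+ cells, also with the replicate block. The list of 7 B cell markers summed to 24.9 to 33.5 CPM in B220− and 31.7 to 35.1 CPM in B220+ libraries. Most of that was Cd79b, a subunit of the B cell receptor (27.4 ± 4.37 and 31.7 ± 1.795 CPM), while Ms4a1, Pax5 and Ebf1 stood at 0.44 CPM or less in every library. Of the 2 B cell markers tested, Cd79b (edgeR adjusted p = 0.357) and Cd22 (0.483), 0 were called, also with the replicate block, and both log2 fold changes were above 0 (0.19 and 0.62). Of 11 markers of conventional T cells, among them Cd4, Cd8b1, Cd5, Cd28 and Ccr7, 11 were called lower in B220+ cells. Their summed level was 1109 to 1846 CPM in B220− and 92.1 to 149.99 CPM in B220+ libraries. Among all genes tested, 5.58% were called higher and 5.56% lower, or 8.85% and 8.6% with the replicate block.

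Promoter sequences are shown for the 2 genes with the largest called changes, Spry2 and Dusp2, and for Dusp1 and Dusp5, the genes with the highest levels per length in B220− cells, because these 4 also differed in the elements found in them. Each line gives the 250 bases before the start of transcription, 5′ to 3′ on the strand of the gene, from RefSeq (GRCm38.p6). Capitals mark a cyclic AMP response element in Dusp1, 2 adjacent serum response elements in Dusp5 and 3 GC boxes in Dusp2. GC boxes were also found in Dusp1 (−150 to −145, −135 to −130 and −48 to −43) and Dusp5 (−96 to −91), and were left in lower case. No capitals are set for Spry2, in which none of the motifs searched was found.
Dusp1 (chr17:26508473-26508722, minus strand): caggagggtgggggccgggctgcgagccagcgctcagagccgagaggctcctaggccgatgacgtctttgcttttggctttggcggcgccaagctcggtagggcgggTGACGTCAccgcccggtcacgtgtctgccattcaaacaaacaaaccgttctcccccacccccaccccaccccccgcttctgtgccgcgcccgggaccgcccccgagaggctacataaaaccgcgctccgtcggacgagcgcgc
Dusp5 (chr19:53528895-53529144, plus strand): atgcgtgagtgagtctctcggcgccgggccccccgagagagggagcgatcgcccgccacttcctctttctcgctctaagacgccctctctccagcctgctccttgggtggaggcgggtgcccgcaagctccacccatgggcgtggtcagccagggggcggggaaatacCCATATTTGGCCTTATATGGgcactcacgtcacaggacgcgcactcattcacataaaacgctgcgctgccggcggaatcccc
Dusp2 (chr2:127335909-127336158, plus strand): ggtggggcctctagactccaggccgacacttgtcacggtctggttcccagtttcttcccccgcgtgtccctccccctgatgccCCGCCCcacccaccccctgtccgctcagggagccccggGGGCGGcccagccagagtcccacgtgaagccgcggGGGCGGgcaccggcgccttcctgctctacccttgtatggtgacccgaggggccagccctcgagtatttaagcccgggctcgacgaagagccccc
Spry2 (chr14:105896820-105897069, minus strand): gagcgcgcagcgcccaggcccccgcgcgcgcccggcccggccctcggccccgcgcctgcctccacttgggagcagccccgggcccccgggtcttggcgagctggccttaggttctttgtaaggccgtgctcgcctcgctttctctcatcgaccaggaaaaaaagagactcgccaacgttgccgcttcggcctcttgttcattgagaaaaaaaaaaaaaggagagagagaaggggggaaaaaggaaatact

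Both strands of the 250 bases before and 50 bases after each start were searched, and 9 of the 10 genes had an entry, all except Dusp4. The cyclic AMP response element (TGACGTCA) was present in 1.79% of 32851 promoters and among the 9 only in Dusp1, at −143 to −136 from the start. The serum response element, which like the TATA, GC and CCAAT boxes was added to the search after the data had been seen, was present in 1.63% of all promoters and among the 9 only in Dusp5, at −82 to −73 and −72 to −63. AP-1 sites (TGANTCA, 7.81% of all promoters), ETS sites (CCGGAAGT, 3.89%) and TATA boxes (TATAAA, 13.6%) were found in 0 of the 9. GC boxes (GGGCGG, 35.7% of all promoters) were found in 7 of the 9, all except Spry2 and Dusp6, and CCAAT boxes (CCAAT, 37.4%) in 4. The 250 bases before the start held 56.0% (Spred2) to 70.8% (Spred1) G and C in the 9. The median of the promoters searched was 52.4%, and the GC box counts were not adjusted for this. None of the matches overlapped another in the 4 promoters shown, and a match is a description of the letters only.

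The comparison asks how the B220+ cells differ from the B220− cells sorted from the epithelial area. The 10 genes did not move as a block. Spry2 rose 2.45-fold in B220+ cells, Dusp2 fell 2.20-fold, Dusp4 fell 1.84-fold and Dusp1 fell 1.21-fold, while the other 6 did not pass the test. With edgeR's quasi-likelihood test and Benjamini-Hochberg adjustment over 14722 genes, 1 of the 10 was thus called higher and 3 lower, against 11.1% of all genes tested called in either direction, 5.58% higher and 5.56% lower. The 10 were chosen with earlier results of these data known, so their count is not that of a blind choice. All 10 passed the filter on low counts. Their median log2 fold change was −0.010, and that of all genes tested was −0.0074. In each library many cells are pooled, so fewer cells that express a gene and less of its RNA per cell cannot be told apart. Tested against a fold change of 1.5, Spry2 (edgeR adjusted p = 0.0205) and Dusp2 (0.00305) passed, where 2.29% of all genes did, 85 of them higher and 252 lower in B220+ cells.

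**Figure D1:**
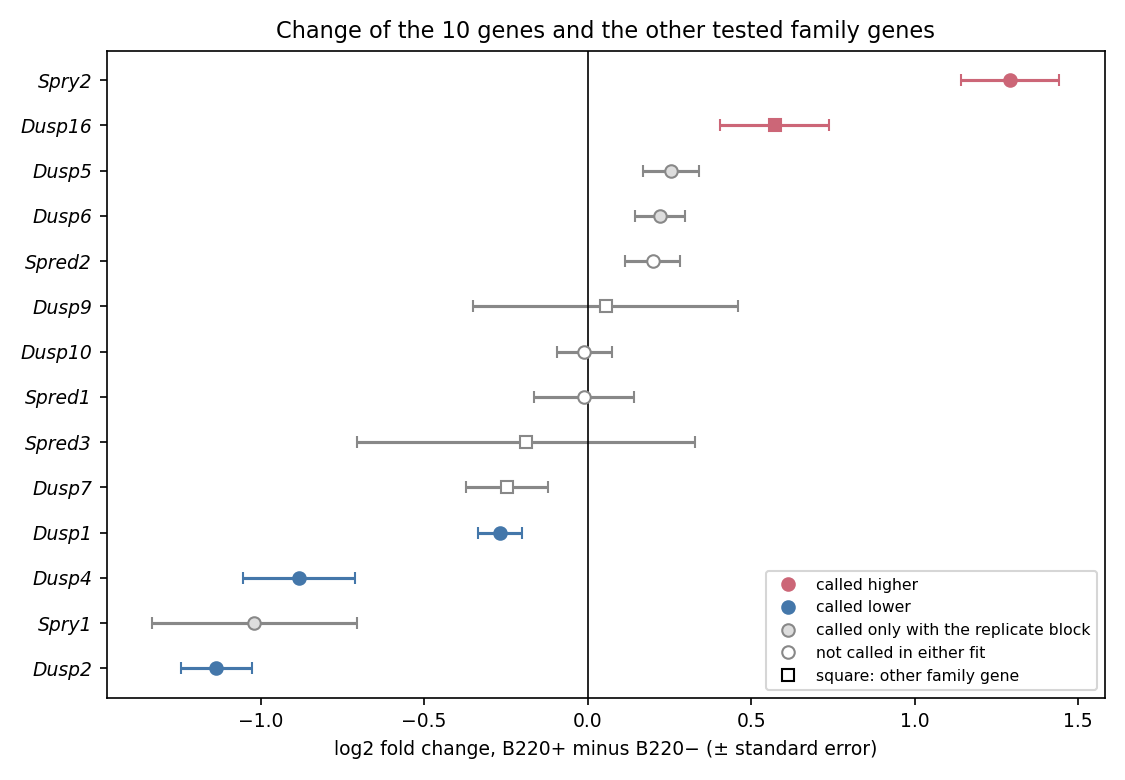
Log2 fold change of B220+ over B220− cells (horizontal axis, bars ± standard error) for the 10 genes (circles) and 4 further genes of the family that could be tested (squares). Spry2 lies farthest to the right at 1.29 and Dusp2 farthest to the left at −1.13, and Dusp10 and Spred1 lie at −0.01.

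Across the 2 groups, libraries with equal replicate numbers were more alike by correlation than those with unequal numbers. No label states a pairing, and shared mice cannot be told apart from shared processing. With the replicate number as a block, 3 of the 10 were called higher and 4 lower, since Dusp5, Dusp6 and Spry1 joined those above, and 17.5% of all genes were called (8.85% higher and 8.6% lower). In 7 of the 10 the CPM of the 2 groups did not overlap (3 higher and 4 lower in B220+ cells), against 28.1% of all genes tested (14.1% higher and 13.9% lower).

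Of the nuclear phosphatases that are induced by stimulation, Dusp1, Dusp2 and Dusp4 were called lower and Dusp5 was not called. Dusp2 (PAC-1; ENSMUSG00000027368, mm10 chromosome 2, 127336159 to 127338376, plus strand) is a lymphoid enzyme that acts on ERK and p38. It stood at 149, 143 and 136 CPM in B220− replicates 1, 2 and 3 and at 55.7, 77.1 and 61.0 CPM in B220+ replicates 1, 2 and 3. Every B220+ library was thus far below every B220− library, and replicate 2 was the highest of the B220+ libraries. The means were 143 ± 6.06 and 64.6 ± 11.1 CPM (SD, n = 3 per group), and the log2 fold change was −1.13 (SE 0.11, edgeR adjusted p = 7.25e-05). Leaving out any 1 library kept the call, and the highest edgeR adjusted p was then 0.00133.

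Dusp4 (MKP-2; ENSMUSG00000031530, chromosome 8, 34807297 to 34819894, plus strand), a phosphatase of ERK and JNK, moved the same way. Its level was 10.99, 12.5 and 11.6 CPM in B220− and 5.01, 7.63 and 6.01 CPM in B220+ replicates 1, 2 and 3, again without overlap and with replicate 2 the highest of the B220+ libraries. The log2 fold change was −0.88 (SE 0.17, edgeR adjusted p = 0.00461), and the call was kept whichever library was omitted. Against a fold change of 1.5 it did not pass (edgeR adjusted p = 0.340).

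Dusp1 (MKP-1; ENSMUSG00000024190, chromosome 17, 26505590 to 26562128, minus strand), an immediate early gene whose product acts mainly on p38 and JNK, had the highest level per length of the 10. Its values were 590.4, 589 and 553 CPM in B220− and 460.2, 483 and 494 CPM in B220+ replicates 1, 2 and 3. The groups did not overlap, but the step between them was small beside that of Dusp2. The means of 577 ± 21.6 and 479 ± 17.4 CPM (SD, n = 3 per group) gave −0.27 as the log2 fold change, with an SE of 0.067 and an edgeR adjusted p of 0.0207. This call was lost without B220− replicate 2 (0.0627), B220+ replicate 1 (0.0873) or B220+ replicate 2 (0.0669), and was 0.00365 with the replicate block. The gene Ergic1 on the opposite strand shares 11 exonic bases with the Dusp1 model, which is 0.332% of its exonic length.

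Genes that dissociation and stress induce, among which Dusp1 is often counted, were measured beside it. Of 17 such genes tested, 0 were called higher and 1 lower (Zfp36, a decay factor for cytokine mRNA, 472 ± 39.7 and 357 ± 55.0 CPM, edgeR adjusted p = 0.0402), or 1 higher and 8 lower with the replicate block. Among all genes tested, 5.58% were called higher and 5.56% lower, or 8.85% and 8.6% with the block. Only 1 of the 17 had a log2 fold change above 0. Without each library in turn Zfp36 stayed under 0.05 only when B220+ replicate 2 was left out, and its adjusted p reached 0.121 without B220+ replicate 3. The median log2 fold change of the list was −0.18, near that of Dusp1. Its summed level spanned 23408 to 30990 CPM in B220− and 18418 to 27450 CPM in B220+ libraries, highest in replicate 2 of each group. The part of dissociation in the Dusp1 difference was not tested.

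Dusp5 (ENSMUSG00000034765, chromosome 19, 53529109 to 53542431, plus strand), which is specific for ERK and holds it in the nucleus, had a log2 fold change above 0. It stood at 249, 306 and 267 CPM in B220− and 302, 328 and 349 CPM in B220+ replicates 1, 2 and 3. B220− replicate 2 lay above B220+ replicate 1, so the groups overlapped. The log2 fold change of 0.25 (SE 0.085) did not pass (edgeR adjusted p = 0.0799). It passed with the replicate block (0.00736), with DESeq2 (0.0458), with no filter on low counts (0.0137) and without B220− replicate 2 (0.0196). The antisense gene Gm50394 covers 547 bases (22.1%) of the exons of Dusp5 at its start and had counts equal to 20.3% of those of Dusp5. Gm50394 stood at 57.0 ± 7.34 and 64.3 ± 3.40 CPM (edgeR adjusted p = 0.302), and reads of the shared bases cannot be told apart if the counting ignored strand.

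**Figure D2:**
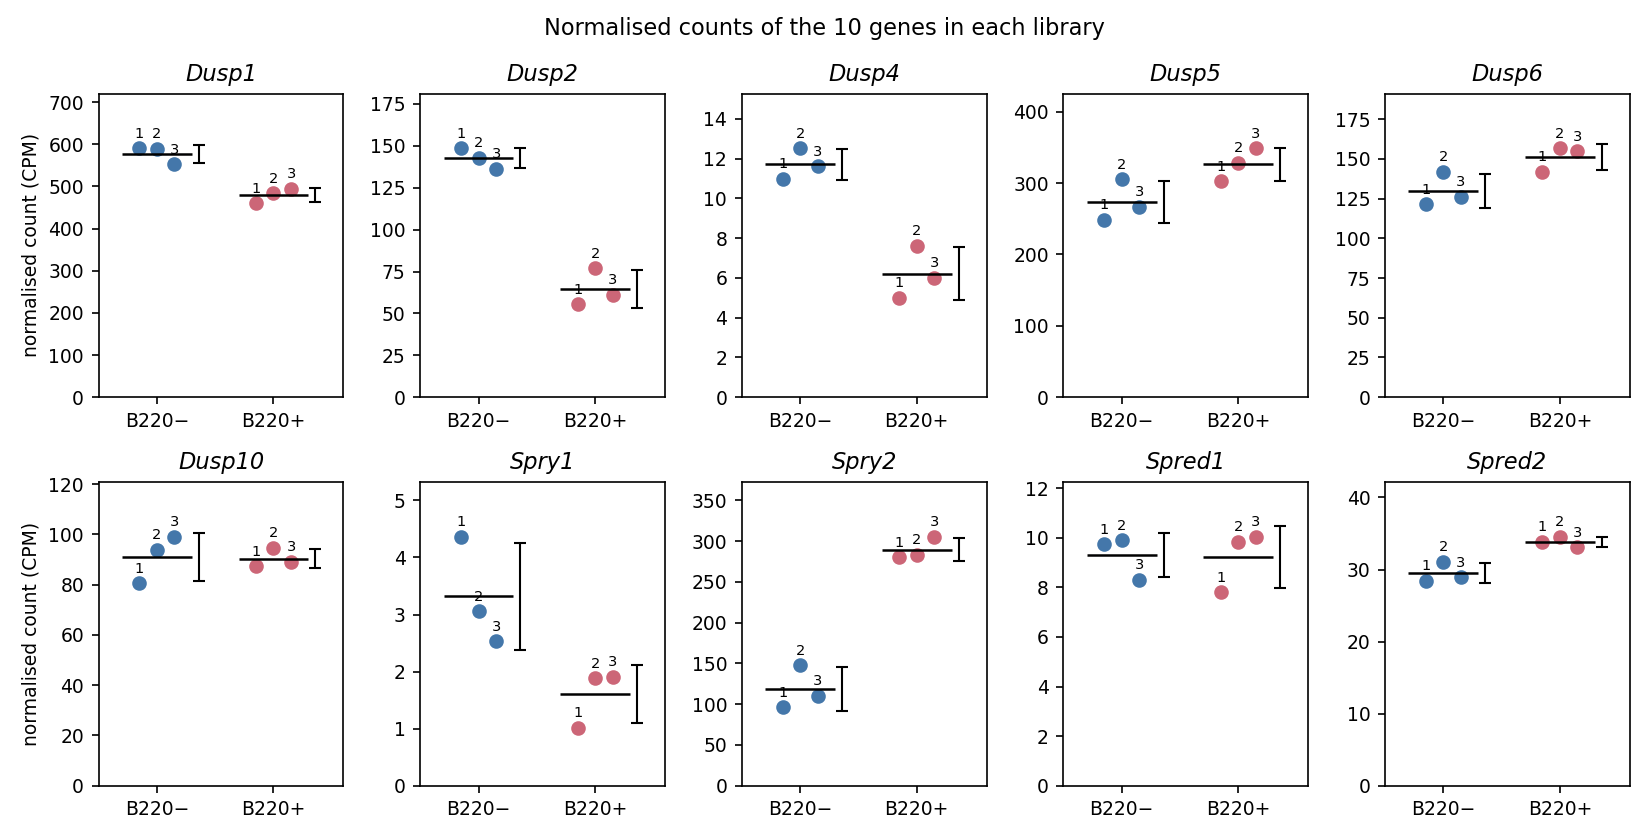
Normalised counts (CPM, vertical axes from 0) of the 10 genes in the 3 B220− and 3 B220+ libraries, with replicate numbers beside the points, the mean as a line and ± SD as a bar. The groups are separate for Dusp1, Dusp2, Dusp4, Dusp6, Spry1, Spry2 and Spred2 and overlap for Dusp5, Dusp10 and Spred1.

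Dusp6 (MKP-3; ENSMUSG00000019960, chromosome 10, 99263231 to 99267489, plus strand) is the cytoplasmic phosphatase of ERK and a classical readout of ERK activity. Its level was 121, 142 and 126 CPM in B220− and 142, 157 and 155 CPM in B220+ replicates 1, 2 and 3. The groups met at 142 CPM, B220− replicate 2 lying just below B220+ replicate 1. The log2 fold change was 0.22 (SE 0.076, edgeR adjusted p = 0.0909), and it passed with the replicate block (0.0114) and without B220− replicate 2 (0.0338).

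Dusp10 (MKP-5; ENSMUSG00000039384, chromosome 1, 184013302 to 184075636, plus strand), a phosphatase of JNK and p38, gave 80.6, 93.8 and 99.1 CPM in B220− and 87.3, 94.6 and 89.1 CPM in B220+ replicates 1, 2 and 3. The B220+ values lay inside the range of the B220− values. The log2 fold change was −0.0098 with an SE of 0.083 (edgeR adjusted p = 0.966), and its sign turned with 4 of the 6 libraries when each was omitted. Among the phosphatases, those acting on ERK therefore included genes called lower (Dusp2, Dusp4) and genes that did not pass but were called higher under some alternatives, among them the replicate block (Dusp5, Dusp6).

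Of the 2 Sprouty genes, Spry2 was called higher and Spry1 was not called. Spry2 (ENSMUSG00000022114, chromosome 14, 105891947 to 105896819, minus strand), whose product binds the ubiquitin ligase Cbl and dampens receptor signalling to ERK, stood at 96.3, 148 and 110.2 CPM in B220− replicates 1, 2 and 3. In B220+ replicates 1, 2 and 3 it stood at 280.0, 283 and 305 CPM. The lowest B220+ library was well above the highest B220− library, and the B220− libraries varied more among themselves. The means were 118 ± 26.8 and 289 ± 13.8 CPM (SD, n = 3 per group), and the log2 fold change was 1.29 (SE 0.15, edgeR adjusted p = 0.00181). Leaving out any 1 library kept the call, and gave log2 fold changes of 1.16 to 1.49 and a highest edgeR adjusted p of 0.0147.

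Spry1 (ENSMUSG00000037211, chromosome 3, 37639947 to 37644598, plus strand), which in T cells inhibits signalling from the antigen receptor, was rare, with 164 counts in B220− cells and 114 in B220+ cells. Its level was 4.36, 3.06 and 2.54 CPM in B220− and 1.02, 1.89 and 1.91 CPM in B220+ replicates 1, 2 and 3. The groups did not overlap, and B220− replicate 1 was the highest. The log2 fold change of −1.02 (SE 0.31) did not pass (edgeR adjusted p = 0.0555), but did with the replicate block (0.0313) and with no filter on low counts (0.0157). DESeq2 gave 0.0772. The opposite-strand gene Gm42922 overlaps 24.4% of its exons and had 9.35% of its counts.

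Within a library, the level per length of Spry2 was 30.7, 67.4 and 60.5 times that of Spry1 in B220− replicates 1, 2 and 3 and 383, 209 and 223 times in B220+ replicates 1, 2 and 3. This pair was set side by side after its values were seen, and the ratio was not tested. The ratios rest on few Spry1 counts, 81, 54 and 29 in B220− and 12, 75 and 27 in B220+ replicates 1, 2 and 3.

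The Spred genes encode membrane-bound relatives of Sprouty that bring the Ras inactivator neurofibromin to the membrane, and neither was called. Spred1 (ENSMUSG00000027351, chromosome 2, 117121374 to 117182279, plus strand) gave 9.75, 9.92 and 8.31 CPM in B220− and 7.80, 9.85 and 10.04 CPM in B220+ replicates 1, 2 and 3. The 2 groups covered the same range, and the log2 fold change was −0.011 (SE 0.15, edgeR adjusted p = 0.978). Spred2 (ENSMUSG00000045671, chromosome 11, 19924375 to 20024026, plus strand) gave 28.4, 31.1 and 28.9 CPM in B220− and 33.8, 34.5 and 33.1 CPM in B220+ replicates 1, 2 and 3. All B220+ libraries were above all B220− libraries, by a small step and the log2 fold change was 0.20 (SE 0.083, edgeR adjusted p = 0.170, or 0.114 with the replicate block).

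Levels of different genes were compared as CPM per kilobase of merged exons. In B220− cells the order was Dusp1 (174 ± 6.52), Dusp5 (111 ± 11.8), Dusp2 (71.2 ± 3.02), Spry2 (56.6 ± 12.8), Dusp6 (41.5 ± 3.42), Dusp10 (29.97 ± 3.13), Spred2 (6.39 ± 0.307), Dusp4 (4.27 ± 0.281), Spred1 (1.37 ± 0.131) and Spry1 (1.14 ± 0.324) (SD, n = 3). The ranges of neighbours overlapped for Dusp2 and Spry2 and for Spred1 and Spry1, and these pairs did not differ beyond their spread. In B220+ cells Spry2 (139 ± 6.62 CPM per kilobase) had moved from the fourth place to the second and Dusp2 (32.2 ± 5.56) from the third to the fifth. There the ranges of Dusp1 (145 ± 5.24), Spry2 and Dusp5 (132 ± 9.40) overlapped from neighbour to neighbour, as did those of Dusp2 and Dusp10 (29.7 ± 1.26).

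**Figure D3:**
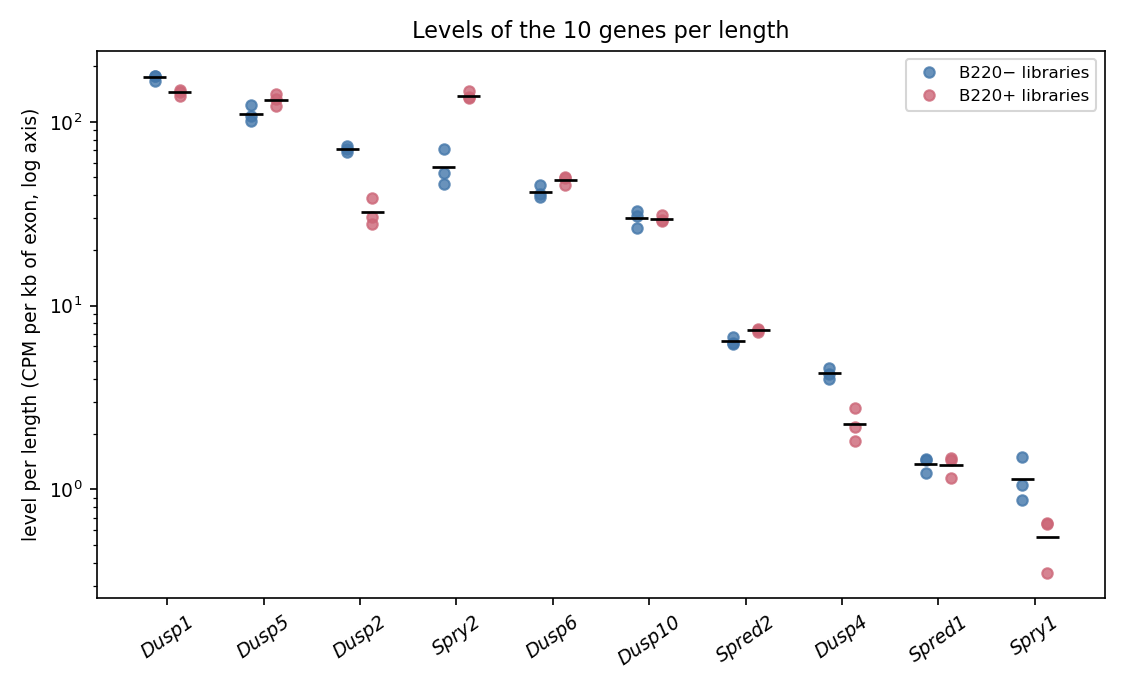
Level per length (CPM per kilobase of merged exons, log axis) of the 10 genes, ordered by the B220− mean, with 1 point per library and the mean as a line. Spry2 lies below Dusp5 and Dusp2 in the mean of the B220− group and next to Dusp1 in that of the B220+ group, and Dusp4, Spred1, Spred2 and Spry1 lie below 10 in every library.

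By this measure, averaged over the 6 libraries of both groups, Dusp1 stood at the 98.0 percentile of all genes tested, Dusp5 at the 97.3, Spry2 at the 96.7, Dusp2 at the 93.1 and Dusp6 at the 91.9 percentile, whereas Spry1 stood at the 13.8 percentile. As a share of the summed level per length of the 10 genes, Spry2 made up 9.66%, 13.3% and 10.98% in B220− and 26.4%, 24.8% and 26.3% in B220+ replicates 1, 2 and 3. The share of Dusp2 was lower in B220+ cells, with 15.5%, 13.4% and 14.2% in B220− and 5.47%, 7.04% and 5.47% in B220+ libraries. The sum itself lay between 477 and 534 CPM per kilobase in B220− and between 508 and 557 in B220+ libraries. The shares of Spry2 and Dusp2 did not overlap between the groups, whereas the summed level did.

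**Figure D4:**
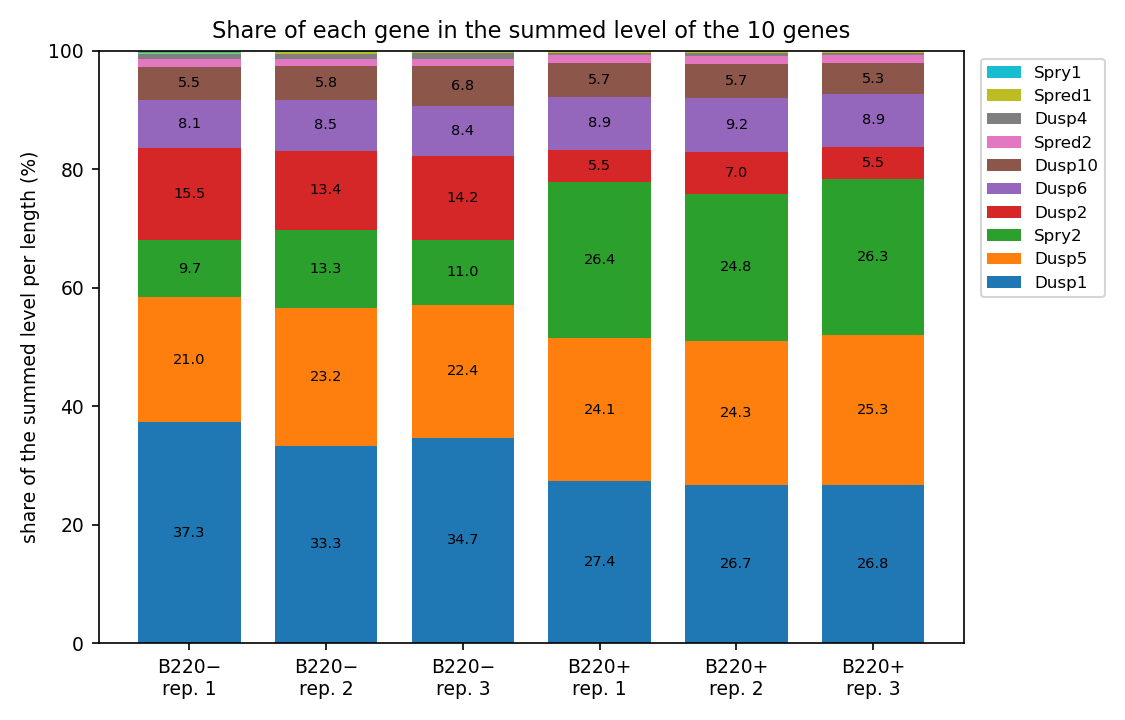
Share of each gene (percent, stacked to 100) in the summed level per length of the 10 genes, for each library. The Spry2 segment is 9.66% to 13.3% in the B220− and 24.8% to 26.4% in the B220+ libraries, and the Dusp2 segment 13.4% to 15.5% and 5.47% to 7.04%.

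Of 8 further genes of the family, 4 had enough counts to be tested. Dusp16 (MKP-7), a phosphatase of JNK and p38, was called higher at 5.12, 6.01 and 5.68 CPM in B220− and 7.97, 9.32 and 7.498 CPM in B220+ replicates 1, 2 and 3 (log2 fold change 0.57, SE 0.17, edgeR adjusted p = 0.0436). The groups did not overlap, but omitting any 1 library ended the call, with an edgeR adjusted p from 0.0505 (B220− replicate 2 omitted) to 0.234 (B220+ replicate 2 omitted), and DESeq2 gave 0.0834. Dusp7, a cytoplasmic ERK phosphatase, stood at 17.2 ± 1.69 and 14.5 ± 1.43 CPM (edgeR adjusted p = 0.271), Dusp9, another ERK phosphatase, at 1.09 ± 0.480 and 1.10 ± 0.246 CPM (0.959) and Spred3 at 0.812 ± 0.501 and 0.662 ± 0.277 CPM (0.885). Of the 4 not tested, Dusp8 had 33 counts in B220− and 19 in B220+ cells, Spry4 7 and 22, Styxl1 8 and 1, and Spry3 0 in both.

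Among 12 tested genes of the atypical dual-specificity phosphatases and the Slingshot phosphatases of cofilin, 3 were called higher and 0 lower, or 4 and 0 with the replicate block. These 3 were Dusp22 (10.4 ± 1.66 and 15.5 ± 1.78 CPM), a phosphatase that restrains the kinase Lck in T cells, Ssh3 (17.4 ± 0.884 and 23.2 ± 2.31 CPM) and Ssh1 (83.8 ± 7.86 and 102 ± 2.77 CPM), with edgeR adjusted p of 0.0267, 0.0240 and 0.0363. When each library was left out in turn, Dusp22 kept its call in 3 of 6 fits and Ssh3 and Ssh1 in 1 of 6 each, with adjusted p up to 0.106 (Dusp22 without B220+ replicate 3, Ssh3 without B220+ replicate 2) and 0.109 (Ssh1 without B220+ replicate 1). Dusp11, an RNA phosphatase, and Ssh2 stood at 204 ± 14.2 and 199 ± 1.67 CPM and at 146 ± 11.7 and 139.9 ± 17.0 CPM and were not called. The median log2 fold change of this list was 0.12. For comparison, 5.58% of all genes tested were called higher and 5.56% lower, or 8.85% and 8.6% with the block.

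The kinases and activators that these phosphatases and Sprouty proteins oppose were examined next. In the Ras and ERK cascade, 2 of 24 tested genes were called higher and 3 lower (2 and 5 with the replicate block), with a median log2 fold change of −0.0080. Calls over all genes tested were 5.58% higher and 5.56% lower, or 8.85% and 8.6% with the block. Rasgrp2, an exchange factor that activates Rap1, fell from 107 ± 10.3 to 49.2 ± 1.51 CPM (edgeR adjusted p = 4.12e-06), with a log2 fold change of −1.12. Mapk3, which encodes ERK1, rose from 79.4 ± 8.82 to 106 ± 2.51 CPM (edgeR adjusted p = 0.00495). The scaffold gene Ksr1 fell from 78.5 ± 4.40 to 62.05 ± 5.00 CPM (edgeR adjusted p = 0.0158), a call lost when B220+ replicate 3 was omitted (0.0779). Rasgrp4 fell from 31.2 ± 1.72 to 23.8 ± 3.09 CPM (edgeR adjusted p = 0.0329), a call kept in 2 of the 6 fits without 1 library and at 0.138 without B220+ replicate 2. The scaffold gene Iqgap1 (583 ± 11.5 and 624 ± 31.1 CPM) and Rasgrp1, the main Ras activator below the T cell receptor (271 ± 6.91 and 287 ± 32.1 CPM), were not called.

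Ras GTPase-activating proteins switch Ras off at the step that Spred proteins serve. Of 8 tested, 1 was called higher and 2 lower, or 4 and 3 with the replicate block, and the median log2 fold change was 0.19. Shares over all genes tested were 5.58% higher and 5.56% lower, or 8.85% and 8.6% with the block. Rasal1 fell from 13.4 ± 0.659 to 3.95 ± 0.662 CPM (edgeR adjusted p = 2.85e-05) and Rasa4 from 2.55 ± 0.410 to 0.714 ± 0.233 CPM (0.00573), both in every fit without 1 library. Rasa2 rose from 92.0 ± 8.32 to 113 ± 6.47 CPM (edgeR adjusted p = 0.0285, 2 of 6 fits without 1 library, up to 0.131 without B220− replicate 3). Rasal3 stood at 595 ± 36.1 and 507 ± 13.6 CPM (edgeR adjusted p = 0.0528, or 0.00958 with the replicate block), and Rasa1 at 131 ± 4.57 and 149 ± 12.4 CPM (0.154, or 0.0362 with the block).

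Of 19 tested genes of the JNK and p38 cascades, 0 were called higher and 1 lower, or 3 higher and 1 lower with the replicate block, with a median log2 fold change of 0.037. The called gene was Mapkapk3, a kinase activated by p38, which fell from 182 ± 23.5 to 122 ± 8.53 CPM (edgeR adjusted p = 0.00160) and kept its call without each library in turn. Map4k1 stood at 246 ± 0.726 and 280.1 ± 1.51 CPM (edgeR adjusted p = 0.0646, or 0.0234 with the replicate block) and Map3k1 at 124 ± 2.23 and 131 ± 9.90 CPM (0.612). Over all genes tested, 5.58% were called higher and 5.56% lower, or 8.85% and 8.6% with the block.

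A list of ERK-responsive transcription and output genes included calls in both directions. It holds transcription factors such as Elk1, Srf and Ets1 beside induced genes, so it is not a measure of ERK output alone. It also shares Fos, Junb, Egr1, Ier2 and Nr4a1 with the list of dissociation and stress genes. Of 20 tested, 2 were called higher and 1 lower, or 3 and 6 with the replicate block, and the median log2 fold change was −0.0033. All genes tested gave 5.58% higher and 5.56% lower, or 8.85% and 8.6% with the block. Fosl2, an AP-1 subunit, rose from 377 ± 73.4 to 596 ± 17.0 CPM (edgeR adjusted p = 0.00954, but 0.0583 without B220+ replicate 2 and 0.0542 without B220+ replicate 3). Egr3 rose from 14.7 ± 2.16 to 20.3 ± 1.95 CPM (edgeR adjusted p = 0.0343) and Ets2 fell from 30.5 ± 1.36 to 22.9 ± 3.40 CPM (0.0311). These calls were kept in 1 and 2 of the 6 fits without 1 library, and were weakest when B220+ replicate 2 was omitted (0.192 for Egr3 and 0.114 for Ets2). Junb (3475 ± 299.9 and 3118 ± 269 CPM) and Ets1 (1130.2 ± 43.0 and 1109 ± 69.5 CPM) were not called.

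**Figure D5:**
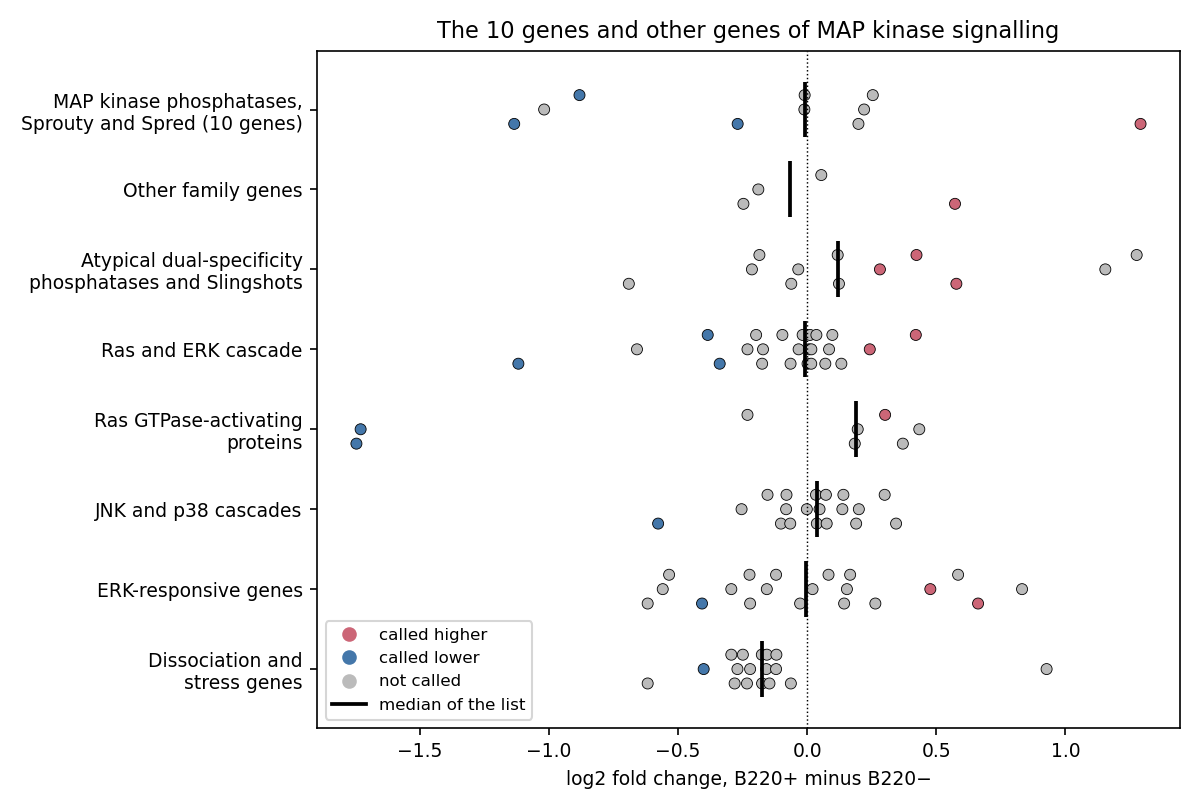
Log2 fold change of B220+ over B220− cells (horizontal axis) for each tested gene of 8 lists (rows), coloured by call, with the median of each list as a vertical line. The 10 genes span −1.13 to 1.29 around a median of −0.010, and the medians of the other 7 lists lie between −0.18 and 0.19. Fos, Junb, Egr1, Ier2 and Nr4a1 appear in both the ERK-responsive and the dissociation and stress rows.

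Markers of other cells were measured beside these results. The fall of the 11 conventional T cell markers, whose list median log2 fold change was −3.88, went with the lower levels of Dusp1, Dusp2 and Dusp4 and the higher level of Spry2, and its part in them was not tested. Of 12 epithelial markers 0 were called, or 1 lower with the replicate block (Muc2, edgeR adjusted p = 0.0169). They summed to 313 to 379 CPM in B220− and 340.4 to 387 CPM in B220+ libraries, and none was at 0 throughout. The list of 10 macrophage and dendritic cell markers summed to 257 to 330 CPM in B220− and 388 to 541 CPM in B220+ libraries. Most of that sum was Itgax, while Adgre1, Cd14, Flt3 and Fcgr1 stood at 0.42 CPM or less in every library, and 1 of 6 tested markers (Lyz2) was called lower. With the replicate block Itgax was called higher as well (edgeR adjusted p = 1.99e-06, against 0.0554 without the block). Plasma cell markers summed to 14.1 to 105 CPM and 7.80 to 26.7 CPM, and the 8 stromal and endothelial markers to 30.7 to 32.3 CPM and 34.4 to 40.6 CPM, with Mzb1 and Kdr at 0 counts in all libraries. Of 3 plasma cell markers tested 1 was called lower in B220+ cells, and of 2 stromal and endothelial markers 0 were called. Both counts were the same with the replicate block. Beside these marker counts, 5.58% of all genes tested were called higher and 5.56% lower, or 8.85% and 8.6% with the block. The part of these other cells in the results was not tested.

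The genes whose pattern over the 6 libraries was most like that of Spry2, by Pearson correlation of log2 CPM among 9380 other genes at a mean of 10 CPM or more, were Sec14l1 (r = 0.999), Gm11775 (an RNA antisense to Cd7, which cannot be told from it without strand, r = 0.997) and Chrnb1 (r = 0.997). Sec14l1, a lipid transfer protein gene, stood at 80.1, 114 and 92.7 CPM in B220− and 189, 194 and 199 CPM in B220+ replicates 1, 2 and 3, and shared with Spry2 the highest B220− value in replicate 2. For Dusp2 they were Ldb1 (r = 0.998), L3mbtl3 (r = 0.995) and Zfp821 (r = 0.994). Ldb1, a cofactor of LIM domain transcription factors, moved by far less, at 379, 375 and 376 CPM in B220− and 321, 336 and 325 CPM in B220+ replicates. These correlations describe 6 points that fall in 2 groups, and they rest mostly on the step between the groups.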

How the data were processed

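RNA of 6 libraries, prepared with a directional kit per the labels' protocols, had been counted by the authors. Their deposited table gives raw counts of reads for each gene. The submitters' processing notes name FastQC 0.11.7, Trimmomatic 0.38, HISAT2 2.1.0, SAMtools 1.9, featureCounts 1.6.3 and the mm10 build. The options, the use of strand and the release of the annotation were not given in the sources used here, so genes that overlap on opposite strands were treated as not distinguishable. Of the gene models, 98.95% had the coordinates of GENCODE release M21, which gave the exonic lengths.

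The counts were tested with edgeR 4.0.16 in R 4.3.3 (trimmed-mean scaling, filterByExpr with a minimum count of 10 and total of 15, robust quasi-likelihood F test on the group alone, Benjamini-Hochberg adjustment, called under 0.05). Log2 fold changes are B220+ minus B220−. Each SE was derived from the test, as the absolute log2 fold change divided by the square root of its F statistic. CPM use the scaled library sizes. The test was run on simulated counts with known changes of 1.5-fold or more in genes above a minimum mean count. That run did not cover smaller changes or genes with few counts. All libraries were kept as separate replicates, since the chi-square of libraries within a group, divided by its degrees of freedom, was 7.37 to 16.2. Replicate numbers were checked for pairing by correlating deviations from the group means over 14722 genes (log2 CPM, prior count 2). The correlation was 0.295, 0.246 and 0.272 for equal numbers and −0.20 to −0.067 for unequal ones. Deviations cancel out within each group, so the negative values are not independent of the positive ones. No label states a pairing, so the main fit used the group alone and the replicate number served as a block in an alternative. Alternatives were DESeq2 1.42.0, its size factors in edgeR, no filter, the replicate block, a minimum fold change of 1.5 and leaving out each library. The 10 genes and the 15 gene lists were chosen with earlier results of these data known. In addition to all 10 genes and the tested genes of their family, the text names from each list up to 4 called genes by size of change and up to 2 others by level, and for marker lists the defining genes. Cell type markers and lists are described by counts and medians, with no test of a list. Promoters are from RefSeq (GRCm38.p6, the same assembly as mm10). Protein sequences were not used here.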

Additional observations from a re-analysis of the deposited data

How the results depend on the processing

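The count of all genes called was 1639, and became 2569 with the replicate block, 337 against a fold change of 1.5 and 970 to 1789 when 1 library was left out (970 without B220+ replicate 2 and 1029 without B220− replicate 3). Of the 10 genes 4 were called, and 7 with the replicate block, 2 against a fold change of 1.5, 6 with no filter (where 2211 of all genes were called), 5 with DESeq2 (1762 of all genes) and 3 to 5 without 1 library. Dusp2, Dusp4 and Spry2 kept their direction and their call under every alternative run, except that Dusp4 did not pass against a fold change of 1.5. Over all alternatives, 90 of 110 values of the 10 genes kept direction and side of the threshold, 5 lost a call, 8 gained one and 7 changed sign. The changes of sign were in genes not called. Without 1 library the log2 fold change ranged from −0.089 to 0.052 for Dusp10, −0.082 to 0.088 for Spred1, −0.21 to 0.50 for Dusp9, −0.69 to 0.45 for Spred3, −0.081 to 0.024 for Dusp11, −0.13 to 0.032 for Ssh2, −0.0086 to 0.15 for Rasgrp1, −0.078 to 0.0087 for Ets1 and −0.52 to 0.094 for Hspa1b. The cause was not tested. With the longest protein-coding transcript as length, chosen after seeing the data, the order of levels of the 10 genes stayed as given in both groups, with Dusp1 at 290.2 and 241 CPM per kilobase. Depth limits Spry1, with 164 and 114 counts, Dusp9, with 53 and 80, and Spred3, with 39 and 52.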
